A study of Mus musculus with 6 samples.

Results

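The expression of 9 genes for secreted antagonists of bone morphogenetic proteins (BMPs) was examined in astrocytes of the upper and deep layers of the mouse neocortex. The genes were Chrdl1, Chrdl2, Chrd, Nog, Grem1, Bmper, Twsg1, Fst and Fstl1, and all 9 were found by symbol among the 43383 rows of the deposited expression table. The genes were chosen from earlier results on these same libraries, in which Chrdl1 differed between layers, so their layer values are given as a description, without a test. RNA was sequenced from GFP-positive cells sorted from somatosensory cortex of 4-week-old male mice with the genotype Aldh1l1-eGFP, in which the promoter of the astrocyte gene Aldh1l1 drives GFP. Upper-layer astrocytes (ULAs) came from layers II–IV and deep-layer astrocytes (DLAs) from layers V and VI of each of 3 brains, with 1 library per layer and brain. All groups carried the transgene, and no mouse was treated. Meninges, layer I and corpus callosum were discarded, and tissue around the border of layers IV and V was lost, so these places are not represented.

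BMPs are secreted signals that bind receptors of type I and type II on the cell surface, which phosphorylate Smad proteins that then turn on target genes such as the Id family. Secreted antagonists bind the ligand outside the cell and keep it from its receptors, and proteases of the tolloid family release the ligand again by cutting chordin. In the brain, BMP signalling is known to favour the formation of astrocytes, and Chrdl1 is known as a protein released by astrocytes that promotes the maturation of synapses.

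The members bind their ligands by different folds. Chordin (Chrd), its relatives Chrdl1 and Chrdl2, and Bmper carry cysteine-rich repeats of the von Willebrand factor C type, whereas noggin (Nog) and gremlin (Grem1) are cystine knot proteins and Fst and Fstl1 carry follistatin domains. A scan of the coding sequences of GENCODE M21 for mouse (GRCm38) looked, in the reading frame, for cysteine codons with the spacing of such a repeat. The pattern was a cysteine codon, 2 other codons, a cysteine codon, 1 other codon and a cysteine codon, followed within 40 codons by a pair of adjacent cysteine codons, 2 other codons and a last cysteine codon. It was found in 78 of 21503 genes (0.363%), and 4 of the 9 members held it. Chrdl1 and Chrdl2 each held 3 copies, and Chrd and Bmper each held 4. The first copy of each gene is shown, 5′ to 3′, because it is the feature that sets Chrdl1 and its closest relatives apart from the other members. It spans codons 57 to 94 of Chrdl1, 65 to 102 of Chrdl2, 99 to 147 of Chrd and 67 to 105 of Bmper. Capitals mark the cysteine codons (TGT or TGC), of which each copy has 9.
Chrdl1: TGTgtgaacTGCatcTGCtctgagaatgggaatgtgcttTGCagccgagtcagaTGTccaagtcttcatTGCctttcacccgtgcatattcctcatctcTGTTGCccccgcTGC
Chrdl2: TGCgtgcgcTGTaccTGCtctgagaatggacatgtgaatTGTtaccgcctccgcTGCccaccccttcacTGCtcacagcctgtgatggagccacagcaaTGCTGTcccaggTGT
Chrd: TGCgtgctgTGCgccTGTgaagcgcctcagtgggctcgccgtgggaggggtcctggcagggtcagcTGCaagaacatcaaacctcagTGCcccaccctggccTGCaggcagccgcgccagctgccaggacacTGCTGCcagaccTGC
Bmper: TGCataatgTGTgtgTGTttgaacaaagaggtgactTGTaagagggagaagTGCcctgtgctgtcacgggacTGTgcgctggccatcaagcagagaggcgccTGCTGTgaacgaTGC
The copies of Chrdl1 and Chrdl2 have the same length of 114 bases and shared 71 of them (62.3%), and those of Bmper and Chrd are 117 and 147 bases long. Cysteine made up 7.61% of the 447 codons of Chrdl1, 11.5% of those of Bmper and 4.31% of those of Nog, against a median of 2.13% over all genes read. The likeness of Chrdl1 to its relatives did not extend to runs as long as a read: of its 6782 transcript stretches of 36 bases, 0 were found in transcripts of another gene.

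Values are RPKM, read numbers scaled to the length of the mRNA and to the depth of the library, so that levels of different genes can be set side by side. Depth, read from the steps of these values, ranged from 24.5 to 26.7 M reads among ULA libraries and from 19.7 to 29.6 M reads among DLA libraries. Profiles of any 2 libraries correlated across rows with r between 0.969 and 0.985 on the log2(RPKM + 1) scale. The astrocyte markers (9 genes) summed to between 10579 and 12121 RPKM in every library, and Aldh1l1 itself stood at 203.27 to 271.06 RPKM. Of these 9 genes, 3 were higher in DLAs in all 3 brains, and 1 was called higher in DLAs. Gfap was at 10.37 to 12.49 RPKM in ULAs and 17.77 to 28.82 RPKM in DLAs. Slc1a3 and Gja1 went the other way, with all ULA values above all DLA values, but no astrocyte marker was called higher in ULAs. Of the marker sets for other cell types, that for oligodendrocytes moved most with layer, with a sum of 86.53 to 176.91 RPKM in ULAs and 175.82 to 277.17 RPKM in DLAs. Of its 7 genes, 6 were higher in DLAs in all 3 brains and passed the test across all rows. Fibroblast markers summed to 3.07 to 4.1 RPKM in ULAs and 4.95 to 6.27 RPKM in DLAs, with Col3a1 and Slc6a13 at 0 in all libraries. Microglial markers summed to 13.56 to 14.69 RPKM in ULAs and 8.95 to 12.04 RPKM in DLAs. Most of this came from P2ry12, at 11.63 to 12.6 and 7.76 to 10.22 RPKM, and the other 6 microglial genes had means under 1 RPKM. Markers of neurons in general, oligodendrocyte precursors and endothelial cells summed to at most 7.61, 1.01 and 2.62 RPKM in any library. Upper-layer neuron markers summed to 86.63 to 129.85 RPKM, mostly from Rorb, and deep-layer neuron markers to 19.1 to 31.63 RPKM, with no gene called. Mural markers summed to 11.25 to 21.91 RPKM, and of them Rgs5 was called higher in ULAs. In sorted bulk samples such as these, fewer cells expressing a gene and less RNA per cell cannot be told apart.

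Chrdl1 was the most abundant of the antagonists in ULAs and was markedly lower in DLAs. The gene (chromosome X, 139720217 to 139828805, minus strand, 12 exons, mm9) reached 96.35, 80.32 and 91.84 RPKM in upper-layer cells of brains 1, 2 and 3. In deep-layer cells of the same brains it stood at 18.68, 17.05 and 24.48 RPKM. Every ULA library was thus far above every DLA library. The mean was 89.5 ± 8.27 RPKM in ULAs and 20.1 ± 3.91 RPKM in DLAs (SD, n = 3). Within the brains, the ULA value was 5.16, 4.71 and 3.75 times the DLA value, a mean of 4.54 ± 0.719 (SD, n = 3). Brain 3, with the smallest ratio, had the highest level among DLAs and the middle one among ULAs. The fitted difference between layers was 2.11 on the log2(RPKM + 1) scale (SE 0.11), the highest of the 13999 rows with a mean of at least 1 RPKM. By level, Chrdl1 ranked 807 among all rows in ULAs and 3903 in DLAs, so it was readily detected in both layers. The values rest on 13934 to 16604 reads per ULA library and on 2270 to 4900 reads per DLA library.

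**Figure D1:**
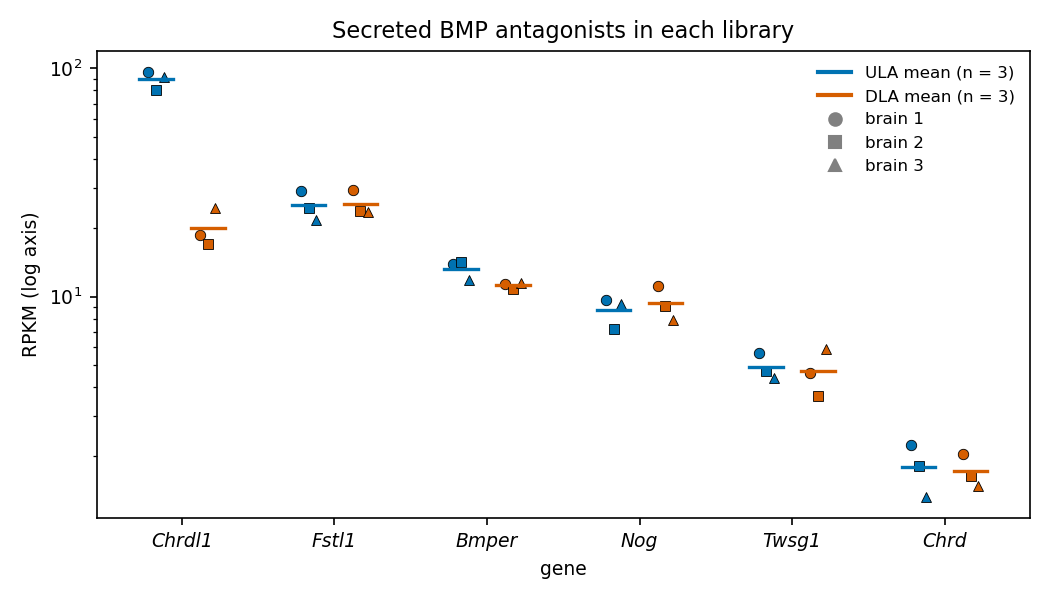
RPKM on a log axis of the 6 antagonists with a mean of at least 1 RPKM, in ULAs (blue) and DLAs (orange), with 1 symbol per brain (circle, square and triangle for brains 1, 2 and 3) and a line at the mean of 3 libraries. Chrdl1 is at 80.32 to 96.35 in ULAs and 17.05 to 24.48 in DLAs, and the values of the other genes lie side by side.

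Oligodendrocyte markers, which moved with layer too, overlapped slightly between ULAs and DLAs, where Chrdl1 did not. The ULAs of brain 3 and the DLAs of brain 1 had nearly the same sum of these markers, at 176.91 and 175.82 RPKM, while Chrdl1 stood at 91.84 and 18.68 RPKM in these libraries. The part of these markers in the layer difference of Chrdl1 was not tested beyond these values.

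The other antagonist genes that were clearly expressed showed no difference of this size. Fstl1 (chromosome 16, 37777141 to 37836602, plus strand, 11 exons), which encodes a secreted glycoprotein with a follistatin domain, was at 29.01, 24.55 and 21.71 RPKM in ULAs and at 29.26, 23.72 and 23.53 RPKM in DLAs. The values of both layers lay within the same range, with means of 25.1 ± 3.68 and 25.5 ± 3.25 RPKM (SD, n = 3) and a log2 difference of −0.03 (SE 0.11). Transcripts of Fstl1 share 7.74% of their 36-base stretches with other genes, so a part of its reads may have been assigned otherwise.

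Bmper (chromosome 9, 23027520 to 23289646, plus strand, 15 exons) encodes a chordin-like protein that can block or promote BMP signalling, depending on the setting. It was at 13.85, 14.12 and 11.8 RPKM in ULAs and at 11.37, 10.84 and 11.51 RPKM in DLAs. The ULA value was the higher one in all 3 brains and the layers did not overlap, but in brain 3 the values were almost equal. Its means were 13.3 ± 1.27 and 11.2 ± 0.353 RPKM (SD, n = 3), and its log2 difference of 0.22 (SE 0.12) was small beside that of Chrdl1.

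Nog (chromosome 11, 89161952 to 89163873, minus strand, 1 exon), the classical high-affinity antagonist noggin, was at 9.67, 7.24 and 9.32 RPKM in ULAs and at 11.17, 9.07 and 7.91 RPKM in DLAs. It was higher in DLAs in brains 1 and 2 and higher in ULAs in brain 3, and the layers overlapped (log2 difference −0.09, SE 0.14). Twsg1 (chromosome 17, 66272405 to 66300527, minus strand, 5 exons) encodes twisted gastrulation, which binds BMPs together with chordin and aids the cutting of chordin. It was at 5.67, 4.71 and 4.4 RPKM in ULAs and at 4.63, 3.66 and 5.9 RPKM in DLAs. Here too brain 3 went against the other two, and the layers overlapped (log2 difference 0.06, SE 0.16).

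Chrd (chromosome 16, 20733200 to 20742457, plus strand, 23 exons), the founding member of the chordin family, was low in both layers. It was at 2.23, 1.81 and 1.33 RPKM in ULAs and at 2.04, 1.64 and 1.48 RPKM in DLAs. Brain 1 was the highest and brain 3 the lowest in both layers, and the layers overlapped (log2 difference 0.03, SE 0.15). The gene overlaps Thpo on the opposite strand by 154 exon bases, which is 4.7% of its length, and Thpo was at 0.71 to 1.55 RPKM. The kit is not stated to keep strand, so reads in that overlap cannot be told apart.

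The remaining members were at or near 0. Fst encodes follistatin, which binds activins above all, and was at 0.03, 0.02 and 0 RPKM in ULAs and at 0.01, 0 and 0 RPKM in DLAs, at most 2 reads in a library. Grem1 encodes gremlin, an antagonist of the DAN family, and was at 0.02, 0 and 0.01 RPKM in ULAs and at 0 in all DLAs. Chrdl2, the nearest relative of Chrdl1, was listed at 0 in all 6 libraries, where 3 reads would have been worth 0.0668 to 0.1 RPKM. Fst and Grem1 thus rested on at most 2 reads in a library, and Chrdl2 was not detected. No layer difference could be read from these 3 genes. They did not reach a mean of 1 RPKM and were not among the rows fitted.

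The fit called 0.714% of all fitted rows in the ULA direction and 0.914% in the DLA direction. Of the 6 members in the fit 1 was called, Chrdl1, which only restates the choice of genes. Layers that did not overlap, with ULAs higher, were seen for Chrdl1 and Bmper, against 6.59% of all fitted rows. Since the genes were chosen from this contrast, these counts and shares are background and not a test of the members. The other 5 members all had log2 differences between −0.09 and 0.22, beside a median over all fitted rows of −0.03.

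The order of the levels differed between layers through Chrdl1. In ULAs the order was Chrdl1, Fstl1, Bmper, Nog, Twsg1 and Chrd, and the range of each gene lay wholly above that of the next. In DLAs Fstl1 came first and Chrdl1 next, with overlapping ranges. Bmper and Nog followed, whose ranges overlapped too, and then Twsg1 and Chrd, which were separate from their neighbours. The ratio of Chrdl1 to Fstl1 within a library was 3.32, 3.27 and 4.23 in ULAs and 0.638, 0.719 and 1.04 in DLAs.

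The summed RPKM of the 9 genes was 156.83, 132.77 and 140.41 in ULAs and 77.16, 65.98 and 74.81 in DLAs. Chrdl1 alone accounted for 61.4%, 60.5% and 65.4% of the sum in ULAs and for 24.2%, 25.8% and 32.7% in DLAs. Without Chrdl1, the sum was 60.48, 52.45 and 48.57 RPKM in ULAs and 58.48, 48.93 and 50.33 RPKM in DLAs. The means of this remainder, 53.8 ± 6.07 and 52.6 ± 5.16 RPKM (SD, n = 3), differed by less than the spread between brains. The pool of antagonist mRNA thus differed between layers through 1 gene, as the stacked bars by library show.

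**Figure D2:**
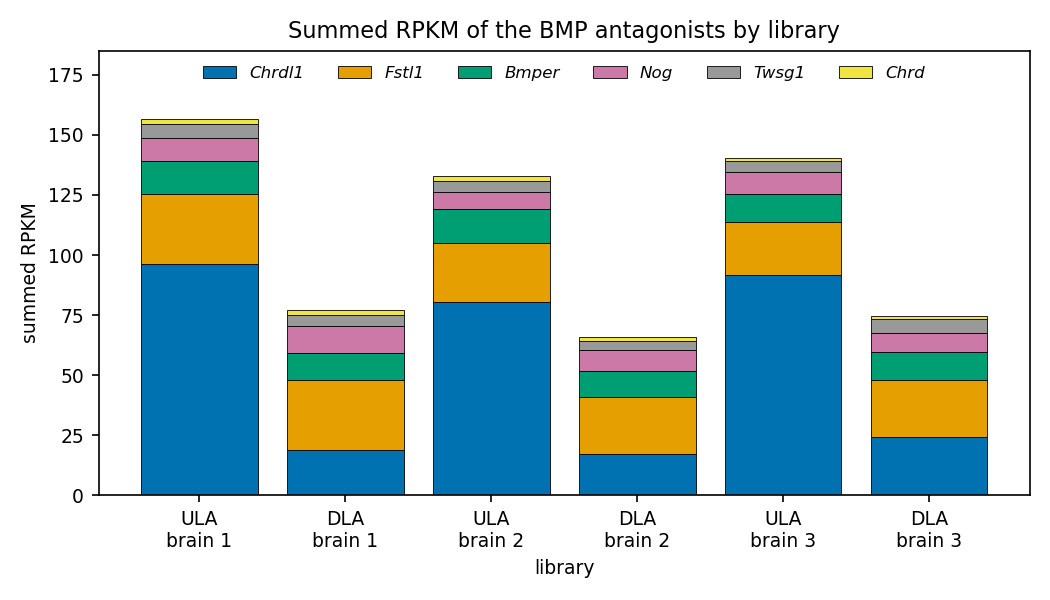
Summed RPKM of the antagonists in each library, stacked by gene, with the ULAs and DLAs of each brain side by side (Fst, Grem1 and Chrdl2 are too low to draw). The bars reach 132.77 to 156.83 in ULAs and 65.98 to 77.16 in DLAs, and the blue Chrdl1 portion makes up the difference.

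The rest of the BMP pathway was then examined with 67 genes in 6 lists, of which 32 had a mean of at least 1 RPKM and were tested by limma across all 13999 rows with Benjamini-Hochberg adjustment. None of the 32 genes was called higher in ULAs, and 4 were called higher in DLAs, all in the list of target genes. Without adjustment, 9 of the 32 had a p under 0.05, as had 16.4% of all tested rows. The 28 genes that were not called had log2 differences of at most 0.5 in either direction, although 4 of them had layers that did not overlap (Nbl1, Acvr2a, Smad1 and Msx1), against 6.59% of all tested rows with ULAs higher and 9.27% with DLAs higher. Another 6 of the 67 genes were listed at 0 in all libraries.

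Of 14 further extracellular modulators, 5 were tested and none was called, with a median log2 difference of −0.27. Dand5, a relative of gremlin, was the highest of them, at 5.29, 3.93 and 4.86 RPKM in ULAs and 4.74, 6.29 and 6.59 RPKM in DLAs. Crim1, a transmembrane protein with chordin-like repeats, had means of 3.45 ± 0.390 and 3.02 ± 0.611 RPKM (SD, n = 3). Tsku, Smoc1 and Nbl1 all had means under 3 RPKM in both layers, and no modulator outside the members came near the ULA level of Chrdl1. Of the tolloid proteases, Bmp1 was the one tested, at 24.68, 11.47 and 20.15 RPKM in ULAs and 30.35, 9.68 and 23.57 RPKM in DLAs. Brain 2 was the lowest in both layers, and the layers did not differ beyond the spread between brains (log2 difference −0.09, SE 0.13, adjusted p = 0.764 by limma).

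Among 18 ligands, 3 were tested and none was called. Bmp7 was by far the most abundant, at 44.34, 34.34 and 26.26 RPKM in ULAs and 33.91, 37.72 and 16.73 RPKM in DLAs. The ULA level was the higher one in brains 1 and 3 and the lower one in brain 2 (log2 difference 0.29, SE 0.14, adjusted p = 0.346 by limma). Set against this ligand within each library, Chrdl1 was at 2.17, 2.34 and 3.50 times the level of Bmp7 in ULAs and at 0.551, 0.452 and 1.46 times its level in DLAs. The activin subunit genes Inhbb and Inhba had log2 differences of 0.16 and −0.46 (SE 0.12 and 0.19, adjusted p = 0.546 and 0.260 by limma).

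Of 14 receptor and coreceptor genes, 9 were tested and none was called, with a median log2 difference of −0.09. The type I receptor gene Bmpr1b was the highest, at 35.24, 38.1 and 31.96 RPKM in ULAs and 31.11, 24.17 and 32.46 RPKM in DLAs, with overlapping layers. The coreceptor gene Rgma followed, with means of 19.1 ± 3.65 and 20.3 ± 2.55 RPKM, and then the type I receptor gene Bmpr1a with 12.4 ± 2.05 and 16.3 ± 6.11 RPKM (SD, n = 3). Acvr1 and the type II receptor genes Bmpr2 and Acvr2a had means of 4.17 to 7.66 RPKM in either layer. Both layers thus held mRNA for a BMP ligand and for receptors of both types.

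Of 10 genes for Smads and Smurfs, which carry or limit the signal inside the cell, 8 were tested and none was called. Smad1, a carrier of the BMP signal, was at 12.73, 14.96 and 16.93 RPKM in ULAs and 20.48, 17.42 and 20.28 RPKM in DLAs. All DLA values lay above all ULA values, but the difference did not pass the adjustment over all rows (log2 difference −0.37, SE 0.12, adjusted p = 0.192 by limma). The ubiquitin ligase genes Smurf2 and Smurf1 and the genes Smad4, Smad2 and Smad3 had means of 3.65 to 6.01 RPKM, and their log2 differences lay between −0.20 and 0.17.

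**Figure D3:**
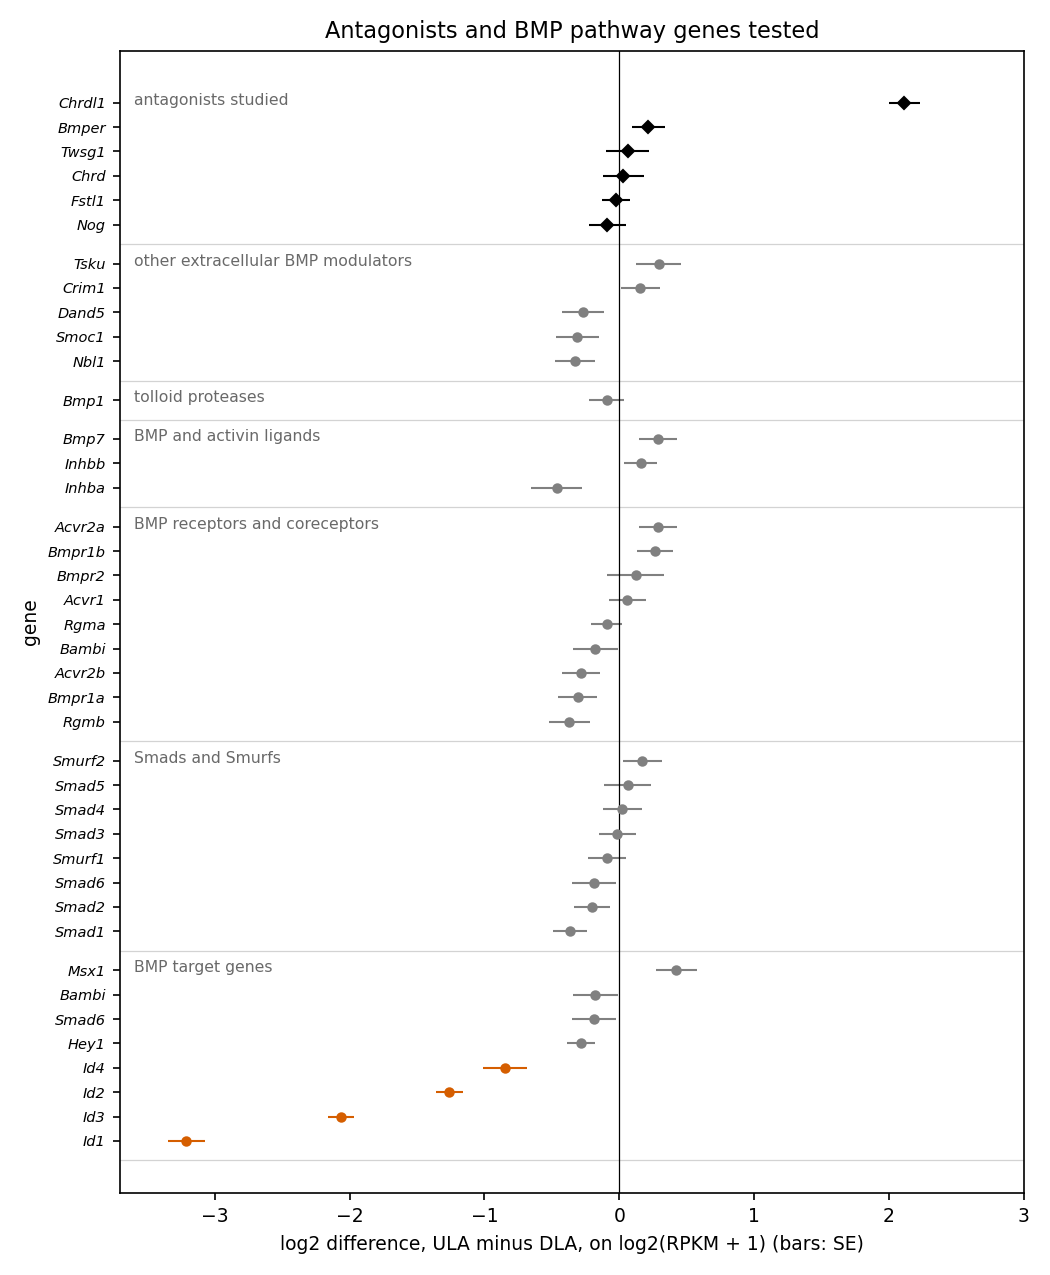
Difference between layers (ULA minus DLA) on the log2(RPKM + 1) scale, with SE bars, for the antagonists (diamonds) and the tested genes of the 6 pathway lists (circles, orange where called higher in DLAs). Chrdl1 stands alone at 2.11 on the ULA side and Id1, Id2, Id3 and Id4 stand at −3.21 to −0.85 on the DLA side, while all other genes lie within 0.5 of 0.

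The called genes were all Id genes. Of the 12 target genes, 8 were tested, 4 were called higher in DLAs and none higher in ULAs, with a median log2 difference of −0.57. The 4 called genes were Id1, Id2, Id3 and Id4, which encode inhibitors of basic helix-loop-helix transcription factors and are widely used as readouts of BMP signalling. The study singled out Id genes from these same libraries, so their count is not independent evidence of a direction.

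Id1 was at 3.44, 3.42 and 4.31 RPKM in ULAs and at 32.29, 40.25 and 59.07 RPKM in DLAs. The gap between layers was wide in every brain, with a log2 difference of −3.21 (SE 0.14, adjusted p = 6.27e-06 by limma). Id3 was at 126.55, 112.33 and 139.62 RPKM in ULAs and 485.71, 542.18 and 561.37 RPKM in DLAs, with a log2 difference of −2.06 (SE 0.10, adjusted p = 1.22e-05 by limma). Chrdl1 and these 2 genes therefore ran in opposite directions between layers in all 3 brains.

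Id2 was the most abundant of the family, at 258.06, 412.85 and 439.68 RPKM in ULAs and 722.17, 951.4 and 941.95 RPKM in DLAs (log2 difference −1.26, SE 0.10, adjusted p = 0.00038 by limma). Brain 1 was the lowest in both layers, and in the model without brain as a term the adjusted p of Id2 was 0.0502. Id4 was at 17.48, 17.58 and 19.78 RPKM in ULAs and 41.66, 21.63 and 42.12 RPKM in DLAs (log2 difference −0.85, SE 0.16, adjusted p = 0.0339 by limma). In brain 2 the DLA level of Id4 was only slightly above the ULA level, and without brain as a term its adjusted p was 0.295.

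Ranked by Id1, the libraries stood in the same order as by the sum of the oligodendrocyte markers, except that the ULAs of brain 3 and the DLAs of brain 1 changed places. In the ULAs of brain 3 and the DLAs of brain 1, with marker sums of 176.91 and 175.82 RPKM, Id1 was at 4.31 and 32.29 RPKM and Id3 at 139.62 and 485.71 RPKM. The part of these markers in the layer difference of the Id genes was otherwise not tested.

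None of the other 4 tested target genes was called. Hey1, a transcriptional repressor that BMP and Notch signals can induce, was at 36.5, 39.8 and 31.57 RPKM in ULAs and 48.01, 49.85 and 35.08 RPKM in DLAs. It was higher in DLAs in all 3 brains but was not called (log2 difference −0.28, SE 0.10, adjusted p = 0.219 by limma). Msx1, a homeobox gene that BMPs induce in many tissues, was at 2.9, 2.98 and 3.13 RPKM in ULAs and 1.98, 1.57 and 2.48 RPKM in DLAs. Its ULA values lay above all DLA values, opposite to the Id genes, and the difference was not called (log2 difference 0.42, SE 0.15, adjusted p = 0.210 by limma). The other 4 target genes were too low to be tested and are named after their values were seen. Msx2, a relative of Msx1, was at 0.6, 0.64 and 0.89 RPKM in ULAs and at 0, 0.04 and 0.06 RPKM in DLAs. Atoh8, a basic helix-loop-helix factor, went the other way, at 0.03, 0.13 and 0 RPKM in ULAs and 0.33, 0.66 and 0.93 RPKM in DLAs. Smad9, a further carrier of the BMP signal, was at 0.61 to 0.88 RPKM in ULAs and 0.36 to 0.59 RPKM in DLAs, and the inhibitor gene Smad7 at 0.53 to 0.68 RPKM in either layer. Bambi and Smad6, inhibitors that BMP signals induce, had log2 differences of −0.18 and −0.19 (SE 0.17 for both, adjusted p = 0.639 and 0.612 by limma).

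**Figure D4:**
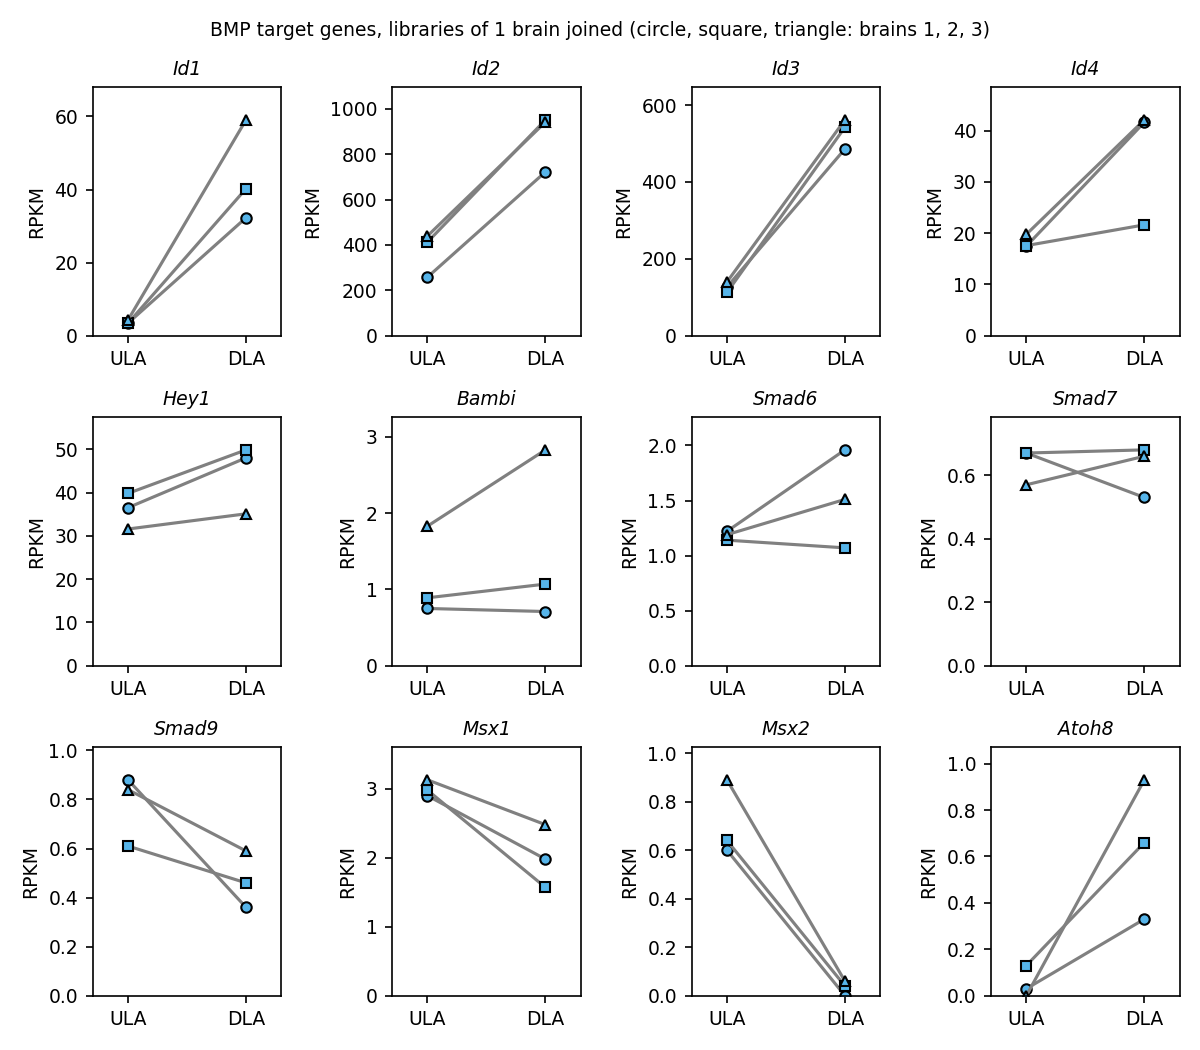
RPKM of the 12 BMP target genes in ULAs and DLAs, with a line joining the libraries of each brain and each vertical axis starting at 0. Id1, Id2, Id3 and Id4 are higher in DLAs in all 3 brains, as are Hey1 (35.08 to 49.85 against 31.57 to 39.8) and Atoh8, while Msx1, Msx2 and Smad9 are lower in DLAs and Bambi, Smad6 and Smad7 differ in direction between brains.

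The rows whose pattern over the 6 libraries was most like that of Chrdl1 were found by the root mean square difference of log2(RPKM + 1) values, each centred on its own mean. There were 8124 candidate rows, with a RefSeq accession and a mean of at least 5 RPKM in the higher layer. The nearest 6 were Lef1, Nptx2, Eogt, Dcc, Fmo1 and Lyn, with differences of 0.193, 0.273, 0.297, 0.392, 0.393 and 0.487. All were higher in ULAs, which the measure itself brings about, so the layer difference of these genes is no further result.

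Lef1, a transcription factor of the Wnt pathway, was at 18.85, 21.13 and 18.12 RPKM in ULAs and 4.37, 4.09 and 5.46 RPKM in DLAs. As for Chrdl1, brain 3 had the highest of the DLA values and brain 2 the lowest, but among ULAs brain 2 was the highest for Lef1 and the lowest for Chrdl1. Eogt, a glycosyltransferase of the endoplasmic reticulum, had a higher level than Chrdl1, at 141.75, 118.67 and 117.02 RPKM in ULAs and 43.27, 36.94 and 45.21 RPKM in DLAs. Nptx2, a secreted pentraxin, had means of 39.1 ± 2.59 and 10.2 ± 1.45 RPKM, and Dcc, a netrin receptor, had means of 30.3 ± 5.07 and 10.4 ± 2.68 RPKM (SD, n = 3). Fmo1, a monooxygenase, had means of 32.5 ± 4.43 RPKM in ULAs and 12.2 ± 3.25 RPKM in DLAs. Lyn, a tyrosine kinase of the Src family, had means of 27.8 ± 4.08 and 11.2 ± 0.212 RPKM. No other antagonist was near to Chrdl1 by this measure: Bmper was the closest at 0.966, and Nog was the farthest at 1.13.

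**Figure D5:**
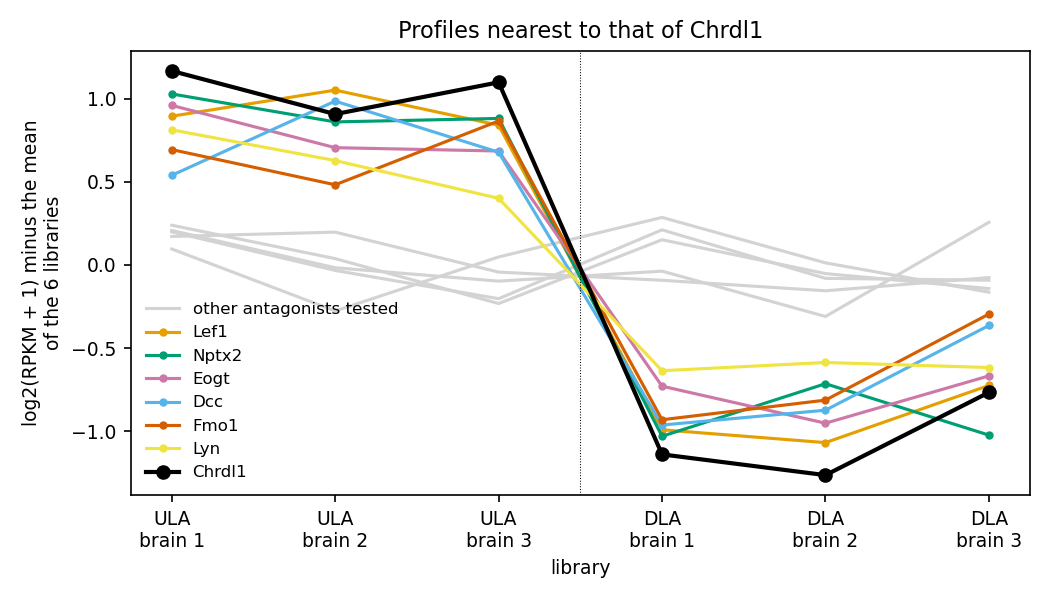
Values of log2(RPKM + 1) minus their mean over the 6 libraries for Chrdl1 (black), the 6 rows nearest to it (colours) and the 5 other fitted antagonists (grey), by library, with lines that only join the values of 1 gene. The coloured profiles follow Chrdl1 from the 3 ULA to the 3 DLA libraries, and the grey profiles stay near 0.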

How the data were processed

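RNA-seq of GFP-positive astrocytes sorted from 2 layers of 3 mouse brains gave 6 libraries, prepared with the SMART-Seq v4 and Nextera XT kits and read as single 36-base reads. The table deposited by the authors holds RPKM (read numbers scaled to mRNA length and library size, truncated to 2 decimals) and the mRNA length, exons and position of each row. Per the submitters' processing notes the genome build was mm9, and bcl2fastq 1.8.4 and CASAVA 1.8.2 were used. The aligner and the counting program are not given in the sources used here. Starts are printed counted from 1. Libraries were grouped by the cell type label and paired by the replicate number of the title. Deviations from the layer means correlated across rows between same-numbered libraries (r of 0.422, 0.333 and 0.341) but not between differently numbered ones (−0.199 to −0.16), and the number was taken as the brain.

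Depth was read from the steps of RPKM in rows of up to 500 bases, where 99.67% to 100% of values equalled, to the last of the 2 decimals, a whole number of reads after truncation, against 86.25% to 88.93% at the next best depth. It gives precision only and covers counting error only. Rows with a mean of at least 1 RPKM (13999) were compared on log2(RPKM + 1), which understates changes of low genes, with limma 3.58.1 in R 4.3.3 (lmFit, eBayes with intensity trend). The model held layer and brain, and 2-sided p-values were adjusted over all rows after Benjamini and Hochberg. A row was called at an adjusted p under 0.05. The scripts were tested on simulated data. Other values were computed in Python 3.11.15 with numpy 2.4.6, pandas 2.3.3 and scipy 1.17.1, and figures were drawn with matplotlib 3.10.9. Coding sequences came from GENCODE M21 on GRCm38, matched by symbol and placed by codon number only.

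The members and lists were chosen with earlier results of these data known. Named were all 9 members, every called gene of a pathway list and up to 6 uncalled genes per list of the highest mean RPKM, the members of marker lists where a list is described, and the 6 rows nearest to Chrdl1; any other gene was chosen after its values were seen. The lists were 67 genes: other extracellular modulators, tolloid proteases, ligands, receptors, Smads and Smurfs, and target genes. Bambi, Smad6, Smad7 and Smad9 were in 2 lists each. Alternatives were no brain term, a pseudocount of 0.1, no filter, a mean of at least 5 RPKM, median centring, quantile normalization, a correction for mRNA length, no variance trend and each brain left out.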

Additional observations from a re-analysis of the deposited data

How the results depend on the processing

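The log2 difference of Chrdl1 was 2.02 to 2.24 over 11 alternatives, and 2.11 both in the paired model and with no replicate block. Rows called higher in ULAs and in DLAs (100 and 128) became 23 and 18 with no replicate block, 65 and 79 without the variance trend, and 77 and 78 with the correction for mRNA length. Quantile normalization gave 138 and 103. Leaving out a brain gave 96 to 431 and 121 to 695, with the largest counts without brain 3. With no filter on low RPKM, 27963 rows were tested by limma and 0 were called in either direction, the members (0) and pathway genes (0) included, while 1124 and 1675 rows had an unadjusted p under 0.05. Pathway genes called higher in DLAs fell from 4 to 2 with no replicate block, where Id2 and Id4 lost their calls. Id1 and Id3 were called under 10 of 11 alternatives, Id2 under 9 and Id4 under 6. The adjusted p of Id4 was 0.066 with quantile normalization, 0.124 with the length correction and 0.087 without the trend. The other alternatives kept every pathway call. No called gene changed sign, but 4 of the 6 members fitted (Chrd, Nog, Twsg1 and Fstl1) and 8 of the 32 pathway genes tested, all within 0.122 of 0, did under some alternative. With a brain left out, the log2 difference ran from −0.25 to 0.0037 for Bmp1, −0.25 to 0.40 for Bmpr2, −0.089 to 0.14 for Acvr1, −0.17 to 0.011 for Rgma, −0.13 to 0.26 for Smad5, −0.11 to 0.13 for Smad4, −0.051 to 0.013 for Smad3 and −0.17 to 0.0070 for Smurf1. The length correction gave −0.038 for Smad5. By Pearson correlation in place of the root mean square difference, 2 of the 6 rows nearest to Chrdl1 (Lef1 and Eogt) were shared. The cause of these changes was not tested. The depth limits Fst, Grem1 and Chrdl2, which rest on 0 to 2 reads per library, and with 3 brains an adjusted p above the threshold does not show that a gene was equal in both layers.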
